A study of Homo sapiens with 6 samples.

Results

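The genes described here are 50 genes of mitosis, taken by symbol from the deposited table of 25365 gene rows: the kinases, cyclins and phosphatases of mitotic entry, the spindle checkpoint, the anaphase-promoting complex (APC/C), the centromere and kinetochore, the spindle, and the cytokinesis machinery. All 50 were found and all 50 passed the filter on low values that left 11783 genes for the test. Levels are in FPKM, which scale the fragments of a gene by its transcript length and by sequencing depth. A fold change is the si-NRDE2-2 minus the si-Control mean of log2(FPKM + 0.1) ± its standard error, with limma's p adjusted by Benjamini-Hochberg over all genes tested, and a level written with ± is a mean and its SD (n = 3). The genes were measured by RNA-seq in MDA-MB-231, an established triple-negative breast cancer cell line. The 2 groups of 3 libraries each were cells transfected with 20 nM of a control siRNA (si-Control, Ambion AM4611) and cells transfected with 20 nM of the siRNA si-NRDE2-2 (Ambion s30064) against NRDE2, a nuclear RNA-processing protein. All cells were harvested 48 h after transfection. Only 1 siRNA against NRDE2 was used, so loss of NRDE2 and other effects of that siRNA cannot be told apart, and the labels do not say whether the 3 replicates were separate cultures.

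Mitosis is driven by cyclin-dependent kinase 1 (CDK1) bound to a cyclin A or cyclin B partner. WEE1 and PKMYT1 hold CDK1 inactive by phosphorylation, and the CDC25 phosphatases remove that block. Unattached kinetochores send out the spindle checkpoint signal, which restrains the APC/C. Once the signal is off, the APC/C with its activator CDC20 marks securin and cyclin B for destruction, and the sister chromatids part. Most of these genes are transcribed in G2 and mitosis under the transcription factors FOXM1 and MYBL2 and the MuvB complex, which binds a promoter element named the cell cycle genes homology region (CHR).

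The CHR letters TTTGAA or, in a variant form, TTTAAA and the CCAAT box, which NF-Y binds, were frequent in the members' promoters. Promoter sequences, 250 bases before to 50 after the RefSeq start (GRCh38.p14), matched 40 of the 50 genes. Only the first listed start of each gene was used. No promoter entry was matched for WEE1, PKMYT1, AURKA, BUB3, TTK, UBE2C, BIRC5, TPX2, RACGAP1 and FOXM1. TTTGAA was present on either strand in 25 of 40 promoters (62.5%), against 15.4% of 27305 RefSeq promoters of this length and 9.38% of the 8806 promoters of tested genes. TTTAAA was present in 27.5% (12.3% of all promoters) and CCAAT in 30 of 40 (35.7% of all). In 16 promoters either CHR form started between 70 and 10 bases before the start. The following 6 windows, 120 bases before to 30 after the start, are shown because they let genes that fell (PLK1, PRC1, CDC20 and CCNB2) be set beside genes whose change did not pass the test (CCNB1 and MKI67). Capitals mark both CHR forms and the CCAAT box, the latter also as its reverse complement (which reads ATTGG).
PLK1, chr16:23678769-23678918, plus strand: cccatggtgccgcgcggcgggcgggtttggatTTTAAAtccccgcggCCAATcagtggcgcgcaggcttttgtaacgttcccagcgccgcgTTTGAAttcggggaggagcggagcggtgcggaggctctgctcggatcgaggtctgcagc
PRC1, chr15:90994506-90994655, minus strand: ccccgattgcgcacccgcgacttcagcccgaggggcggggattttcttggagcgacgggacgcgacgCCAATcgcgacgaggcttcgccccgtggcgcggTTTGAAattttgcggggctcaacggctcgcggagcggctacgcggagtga
CDC20, chr1:43358861-43359010, plus strand: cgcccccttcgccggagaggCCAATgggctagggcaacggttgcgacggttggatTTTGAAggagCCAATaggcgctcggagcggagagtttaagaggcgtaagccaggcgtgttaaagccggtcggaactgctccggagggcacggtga
CCNB2, chr15:59105026-59105175, plus strand: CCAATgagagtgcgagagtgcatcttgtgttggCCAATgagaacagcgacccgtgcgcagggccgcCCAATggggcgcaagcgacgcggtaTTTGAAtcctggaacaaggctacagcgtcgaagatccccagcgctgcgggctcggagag
CCNB1, chr5:69167030-69167179, plus strand: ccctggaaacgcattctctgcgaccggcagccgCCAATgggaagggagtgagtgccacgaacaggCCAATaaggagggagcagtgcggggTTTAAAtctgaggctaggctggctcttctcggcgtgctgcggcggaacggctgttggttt
MKI67, chr10:128126394-128126543, minus strand: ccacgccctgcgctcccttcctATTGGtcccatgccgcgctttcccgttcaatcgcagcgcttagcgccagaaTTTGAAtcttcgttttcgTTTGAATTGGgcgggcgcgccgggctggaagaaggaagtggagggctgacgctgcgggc

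In PLK1 and CCNB2 a TTTGAA began 29 bases before the start, in PRC1 20 bases before it and in CDC20 65 bases before it. In CCNB1 a TTTAAA began 30 bases before the start, and in MKI67 a TTTGAA began 47 and another 29 bases before it, the latter sharing letters with an ATTGG. The shares of promoters with TTTGAA were close to each other whatever the gene's response: 10 of the 16 genes that fell (62.5%), 13 of the 21 that did not pass the test (61.9%) and 2 of the 3 that rose (66.7%). ANAPC2, the member with the largest fall, had none of these letters in its window, and neither had CDC25C, MAD1L1 or CDC25B. Windows at any other starts of these genes were not searched, so the letters may lie elsewhere in their promoters. A match is a run of letters in this window, not a measured binding site.

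NRDE2 followed the labels in all 6 libraries, and 2 libraries stood apart by most often holding their group's lowest value among the mitotic genes. NRDE2 was at 4.39, 4.45 and 3.80 FPKM in the si-Control libraries and 0.230, 0.234 and 0.229 FPKM in the si-NRDE2-2 libraries (log2 fold change -3.70 ± 0.10, adjusted p = 4.4e-09). Of the line's identity markers, the mesenchymal gene VIM was at 1113 FPKM or more and CD44 at 149 FPKM or more in every library, and the hormone receptor genes ESR1 and PGR were at no more than 0.00441 FPKM. RNA of ERBB2, the other receptor in the term triple-negative, was present at 10.3 to 12.9 FPKM, and of the epithelial genes EPCAM was at 7.43 to 8.45 FPKM and CDH1 at 0.326 to 0.445 FPKM. Depth, estimated from the steps between low values, ran from 39200000 to 53900000 fragments, so the member with the fewest reads, HMMR, rested on about 485 to 794 fragments per library. Of the 50 genes 34 had their lowest si-NRDE2-2 value in replicate 1 and 29 had their lowest si-Control value in replicate 3. At the other end, replicate 2 held the highest value for 27 of the 50 in each group. In si-Control replicate 3 the longest transcripts were low: 7 of the 8 members with a transcript of at least 6000 bases were below the mean of replicates 1 and 2 (median difference -0.22 on the log2 scale), against 25 of the 42 shorter ones (median -0.02). MKI67 had the largest such gap (-0.33) and CIT the next (-0.27). The part of transcript length or RNA quality in the results was not tested, but counts are given below without these 2 libraries and with length and GC trends removed.

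**Figure D1:**
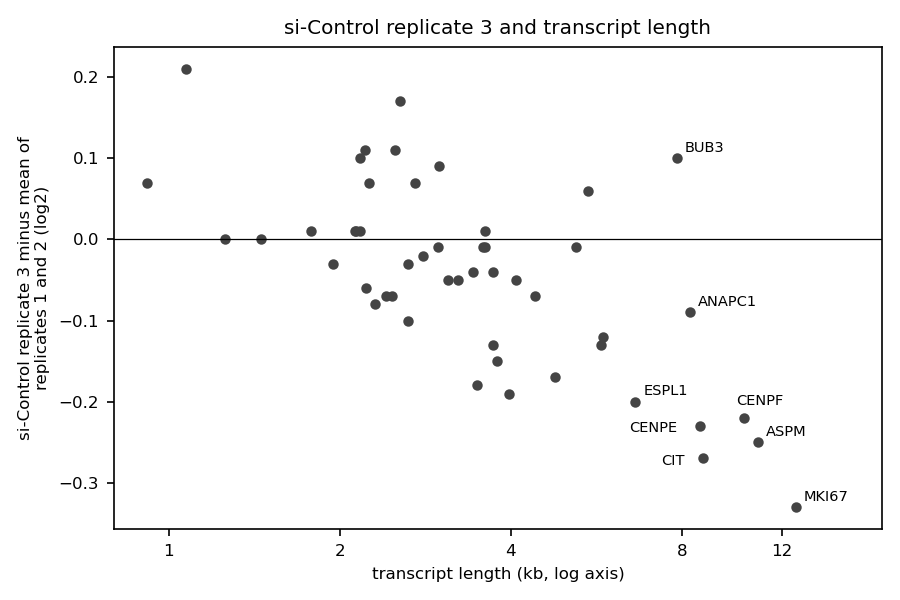
Each point is 1 of the 50 mitotic genes. The x axis is the length of its longest protein-coding GENCODE transcript in kb (log axis) and the y axis is log2(FPKM + 0.1) in si-Control replicate 3 minus the mean of replicates 1 and 2. Of the 8 named genes of at least 6000 bases, 7 lie below 0, with MKI67 lowest at -0.33.

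Mitotic genes as a group were slightly lower after si-NRDE2-2, with a small number higher. Of the 50 genes 20 fell and 4 rose at an adjusted p under 0.05, and 26 did not pass the test. Over all genes tested 23.0% fell and 20.9% rose, so the members' share of falls (20 of 50) was above that background and their share of rises (4 of 50) below it. The members were chosen with earlier results of these data known, so this comparison is not independent of them. Every si-NRDE2-2 library lay below every si-Control library for 22 members (28.3% of all tested genes), and above them for 4 (25.2%). The median log2 fold change of the members was -0.121, against -0.016 for all tested genes. The summed level of the 50 genes was 2476.8, 2578.5 and 2562.0 FPKM with si-Control and 2357.7, 2450.5 and 2409.5 FPKM with si-NRDE2-2. No library of one group reached into the range of the other in that sum. The FPKM total of all tested genes was 424253, 433322 and 460535 with si-Control and 440637, 435454 and 433961 with si-NRDE2-2. The members' sums were not scaled to these totals, on which their separation may depend. The changes were small: the largest fall was that of ANAPC2, to 0.739 times its control level, and the largest rise that of BUB3, to 1.45 times. In bulk RNA, fewer cells in mitosis and less of these RNAs per cell cannot be told apart. Leaving out 1 library at a time gave 16 to 26 members that fell and 2 to 6 that rose, with 2 without si-NRDE2-2 replicate 2. Without both libraries that stood apart (si-Control replicate 3 and si-NRDE2-2 replicate 1), 29 fell and 6 rose, where 28.8% of all genes fell and 26.7% rose.

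**Figure D2:**
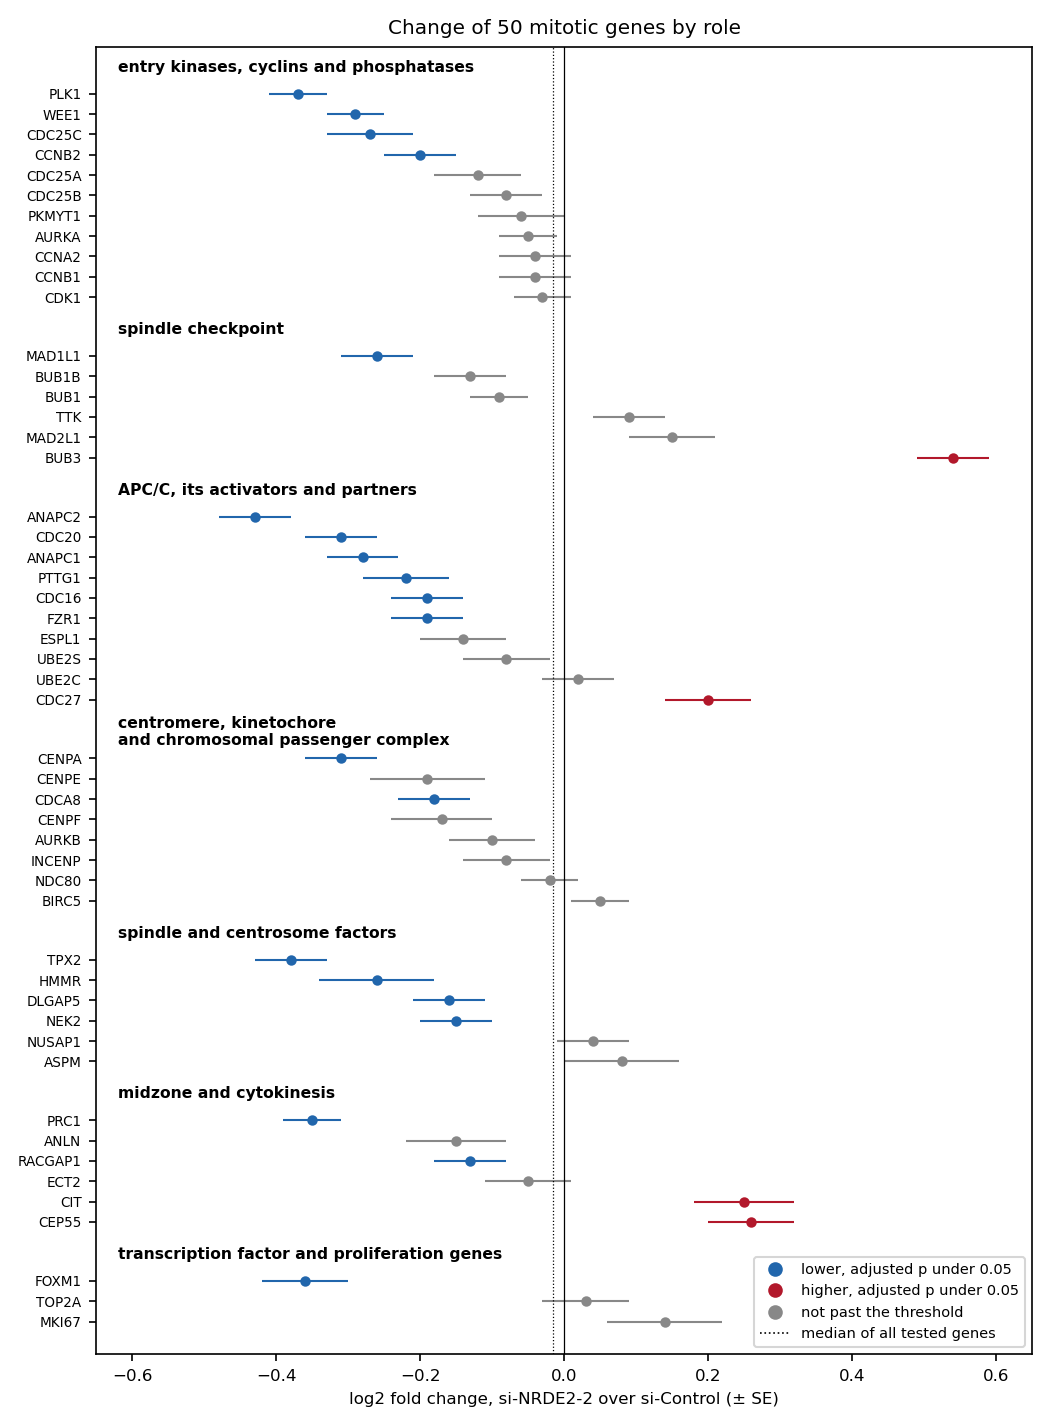
Log2 fold change of si-NRDE2-2 over si-Control (x axis, points) with its standard error (bars) for the 50 mitotic genes, in rows by role, coloured by the test. The dotted line is the median of all tested genes, -0.016. BUB3 at 0.54 and ANAPC2 at -0.43 are the ends of the range.

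Among the genes of mitotic entry the kinase PLK1, the inhibitory kinase WEE1, the phosphatase CDC25C and cyclin B2 fell, while CDK1 and its main cyclins did not pass the test. Of 11 genes 4 fell (36.4%, against 23.0% of all genes tested) and 0 rose (against 20.9%), with a median of -0.078. PLK1, the Polo-like kinase that acts at nearly every step of mitosis, was at 41.9, 44.3 and 41.4 FPKM in the si-Control libraries and 33.7, 32.6 and 32.3 FPKM in the si-NRDE2-2 libraries (log2 fold change -0.37 ± 0.04, adjusted p = 6.2e-05). Every si-NRDE2-2 library lay below every si-Control library, with a gap larger than the range within either group. WEE1, which phosphorylates and blocks CDK1, was at 20.4, 20.6 and 19.9 FPKM with si-Control and 16.3, 16.7 and 16.6 FPKM with si-NRDE2-2 (log2 fold change -0.29 ± 0.04, adjusted p = 2.2e-04). CDC25C, the phosphatase that removes that phosphate at the start of mitosis, was at 12.4, 13.2 and 12.9 FPKM with si-Control and 9.90, 11.4 and 10.7 FPKM with si-NRDE2-2 (log2 fold change -0.27 ± 0.06, adjusted p = 0.00325), lowest in si-NRDE2-2 replicate 1. Thus a gene of the brake and a gene of its release both fell. CCNB2, cyclin B2, was at 49.6, 52.1 and 54.9 FPKM with si-Control and 44.5, 46.1 and 45.5 FPKM with si-NRDE2-2 (log2 fold change -0.20 ± 0.05, adjusted p = 0.00506), with no overlap of the groups.

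The core of the entry switch had groups that overlapped. CDK1 was at 69.99, 72.8 and 69.9 FPKM with si-Control and 66.3, 70.5 and 71.2 FPKM with si-NRDE2-2 (log2 fold change -0.03 ± 0.04, adjusted p = 0.598). CCNB1, cyclin B1, was at 116, 123 and 129 FPKM with si-Control and 118, 121 and 119 FPKM with si-NRDE2-2 (-0.04 ± 0.05, adjusted p = 0.565), and was the 4th most abundant of the 50 in the control libraries. CCNA2, cyclin A2, went from 56.0 ± 1.0 to 54.6 ± 3.49 FPKM (-0.04 ± 0.05) and the kinase AURKA, which activates PLK1, from 87.5 ± 3.09 to 84.7 ± 2.27 FPKM (-0.05 ± 0.04). The other CDC25 phosphatases CDC25A (-0.12 ± 0.06, adjusted p = 0.149) and CDC25B (-0.08 ± 0.05, adjusted p = 0.239) and the second inhibitory kinase PKMYT1 (-0.06 ± 0.06, adjusted p = 0.49) did not pass the test either. Without both libraries that stood apart these 3 passed (adjusted p = 0.032, 0.0188 and 0.041), and CDC25A also passed without si-Control replicate 3 alone (adjusted p = 0.0367). Whether the paralogs, such as CCNB1 and CCNB2, differed from each other in response was not tested.

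**Figure D3:**
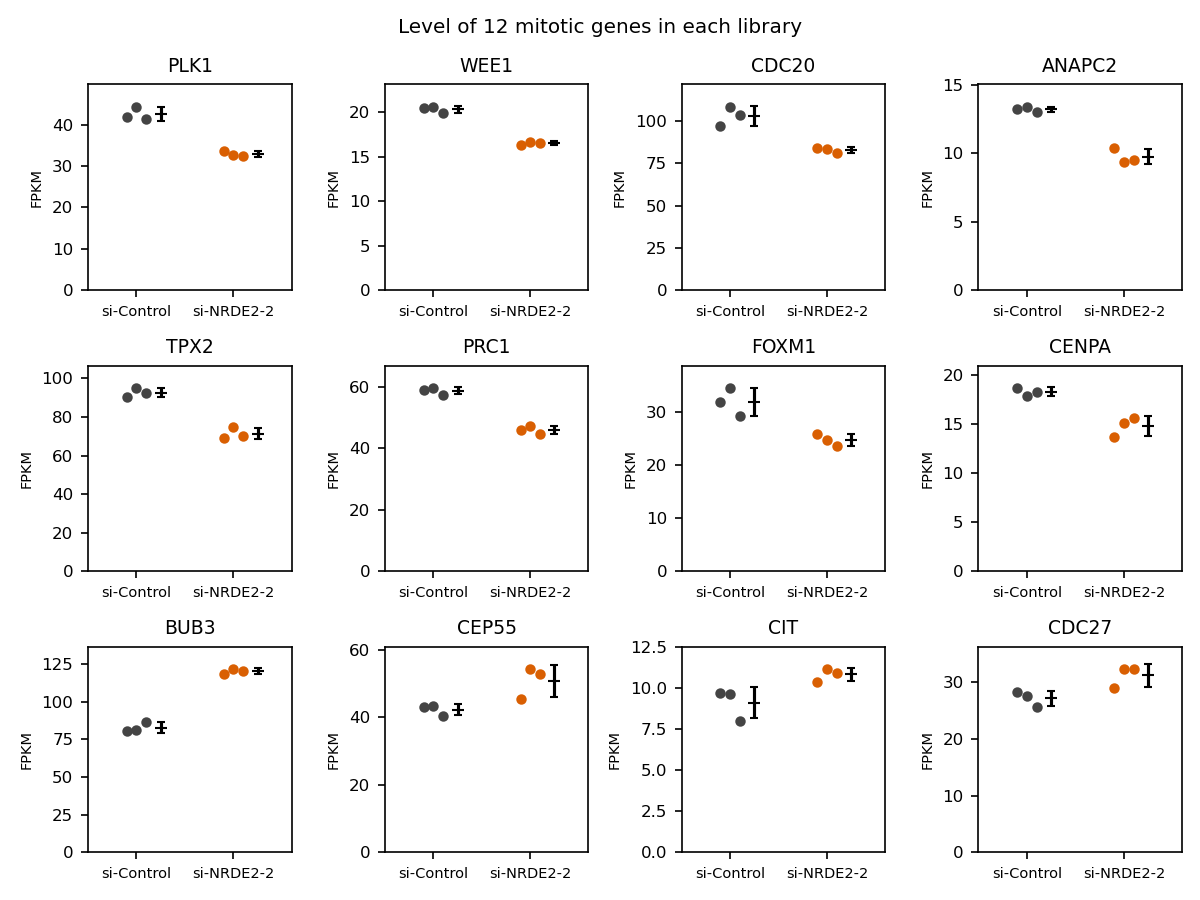
FPKM (y axes, starting at 0) of 12 mitotic genes in the 3 si-Control (grey) and 3 si-NRDE2-2 (orange) libraries, each a point, with the mean and SD as a bar beside them. The groups do not overlap for any of the 12: PLK1, WEE1, CDC20, ANAPC2, TPX2, PRC1, FOXM1 and CENPA are lower and BUB3, CEP55, CIT and CDC27 higher with si-NRDE2-2. All 12 were picked from members past the threshold, so the separation follows in part from that choice. Among the 50 members the groups overlap for 24. Of all tested genes 28.3% were lower and 25.2% higher in every si-NRDE2-2 library than in every si-Control library.

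Of the 6 spindle checkpoint genes 1 rose, 1 fell and 4 did not pass the test, with a median of 0.000. Falls and rises were 16.7% each, below the 23.0% and 20.9% of all genes tested. BUB3, the WD-repeat protein that brings BUB1 and BUBR1 to the kinetochore, was at 80.4, 81.2 and 86.8 FPKM in the si-Control libraries and 118, 122 and 120.3 FPKM in the si-NRDE2-2 libraries (log2 fold change 0.54 ± 0.05, adjusted p = 5.3e-06). All 3 si-NRDE2-2 libraries were above 118 FPKM and no control library reached 87 FPKM, the largest change among the 50 genes. The genes of the partners that BUB3 recruits did not pass the test. BUB1, a checkpoint kinase, was at 37.4, 37.0 and 36.8 FPKM with si-Control and 33.7, 35.2 and 35.7 FPKM with si-NRDE2-2 (log2 fold change -0.09 ± 0.04, adjusted p = 0.101), and BUB1B, which encodes BUBR1 of the complex that inhibits the APC/C, went from 19.2 ± 0.993 to 17.6 ± 0.526 FPKM (-0.13 ± 0.05, adjusted p = 0.0621). Both were lower in every si-NRDE2-2 library, without passing the test. BUB1B passed without si-Control replicate 3 (-0.17, adjusted p = 0.0131), and after removal of GC and length trends both passed (0.0103 for BUB1 and 0.0139 for BUB1B as adjusted p).

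MAD1L1, the kinetochore anchor on which MAD2 is turned into its active form, was at 11.97, 11.8 and 12.7 FPKM with si-Control and 10.3, 9.95 and 10.1 FPKM with si-NRDE2-2 (log2 fold change -0.26 ± 0.05, adjusted p = 0.00131). MAD2L1, which encodes MAD2 itself, was at 43.4, 44.1 and 45.6 FPKM with si-Control and 44.8, 51.2 and 52.6 FPKM with si-NRDE2-2 (log2 fold change 0.15 ± 0.06, adjusted p = 0.0515): replicates 2 and 3 of si-NRDE2-2 were above all controls and replicate 1 was among them. It passed without si-NRDE2-2 replicate 1 (0.23, adjusted p = 0.00315) and without si-Control replicate 3 (0.17, adjusted p = 0.0488), and its alternatives spanned adjusted p-values of 1.2e-04 to 0.19. TTK, the kinase MPS1 that starts the checkpoint signal, went from 20.1 ± 0.308 to 21.4 ± 1.46 FPKM (0.09 ± 0.05, adjusted p = 0.194) and passed without si-NRDE2-2 replicate 1 (0.15, adjusted p = 0.0176).

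The APC/C, its activators and its substrates held the largest number of falls: 6 of 10 genes fell and 1 rose, with a median of -0.190. Falls were 60.0% and rises 10.0% of the group, against 23.0% and 20.9% of all genes tested. ANAPC2, the cullin subunit of the catalytic core, was at 13.2, 13.4 and 13.0 FPKM in the si-Control libraries and 10.4, 9.33 and 9.52 FPKM in the si-NRDE2-2 libraries (log2 fold change -0.43 ± 0.05, adjusted p = 7.9e-05). ANAPC1, the largest scaffold subunit, was at 12.2, 11.7 and 11.3 FPKM with si-Control and 9.57, 9.66 and 9.75 FPKM with si-NRDE2-2 (log2 fold change -0.28 ± 0.05, adjusted p = 0.00103). CDC16, a tetratricopeptide-repeat subunit, was at 35.0, 36.2 and 38.5 FPKM with si-Control and 32.5, 31.6 and 32.3 FPKM with si-NRDE2-2 (log2 fold change -0.19 ± 0.05, adjusted p = 0.00714). In these 3 subunit genes no si-NRDE2-2 library reached the control range. CDC27, the repeat subunit that receives the activators, went the other way, at 28.2, 27.6 and 25.6 FPKM with si-Control and 28.9, 32.3 and 32.2 FPKM with si-NRDE2-2 (log2 fold change 0.20 ± 0.06, adjusted p = 0.0147). That call was lost without si-NRDE2-2 replicate 2 (0.17, adjusted p = 0.0684) or replicate 3 (0.17, adjusted p = 0.0515), in a range of 4.2e-04 to 0.0684. CDC27 has 11 pseudogenes by RefSeq name and ANAPC1 has 6, of which ANAPC1P1 was listed at 0.952 to 1.38 FPKM, so reads shared with near copies make both values less certain.

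Both activators fell. CDC20, which targets the APC/C to securin and cyclin B, was at 97.0, 108 and 103 FPKM with si-Control and 84.1, 83.7 and 80.8 FPKM with si-NRDE2-2 (log2 fold change -0.31 ± 0.05, adjusted p = 4.9e-04). FZR1, which encodes the CDH1 activator of late mitosis and G1, was at 16.8, 17.1 and 16.9 FPKM with si-Control and 15.7, 14.7 and 14.1 FPKM with si-NRDE2-2 (log2 fold change -0.19 ± 0.05, adjusted p = 0.00825). The enzymes that hand ubiquitin to the complex did not pass the test: UBE2C, which starts the chains, was at 232, 243 and 249.6 FPKM with si-Control and 245, 247 and 243 FPKM with si-NRDE2-2 (log2 fold change 0.02 ± 0.05, adjusted p = 0.732), and UBE2S, which extends them, went from 135 ± 11.2 to 128 ± 6.30 FPKM (-0.08 ± 0.06, adjusted p = 0.346). PTTG1, securin, the most abundant of the 50 in the control libraries, was at 251, 269.5 and 300.03 FPKM with si-Control and 236, 232 and 233 FPKM with si-NRDE2-2 (log2 fold change -0.22 ± 0.06, adjusted p = 0.0137). It varied more between the control libraries than between the si-NRDE2-2 libraries, and without si-NRDE2-2 replicate 2 its adjusted p was 0.0511. Its near copies PTTG2 and PTTG3P were listed at no more than 0.404 FPKM. ESPL1, separase, the protease that securin holds, went from 8.12 ± 0.677 to 7.34 ± 0.0794 FPKM (-0.14 ± 0.06, adjusted p = 0.0988). It passed without si-Control replicate 3 (-0.21, adjusted p = 0.0095).

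Of the 8 centromere, kinetochore and chromosomal passenger genes 2 fell and 0 rose, with a median of -0.135. The group's share of falls was close to the 23.0% of all genes tested, and its share of rises was below their 20.9%. CENPA, the histone H3 variant that marks the centromere, was at 18.7, 17.9 and 18.3 FPKM in the si-Control libraries and 13.7, 15.1 and 15.6 FPKM in the si-NRDE2-2 libraries (log2 fold change -0.31 ± 0.05, adjusted p = 0.00106), with no overlap and the lowest value in si-NRDE2-2 replicate 1. CDCA8, which encodes borealin of the chromosomal passenger complex, was at 30.9, 33.6 and 30.8 FPKM with si-Control and 28.6, 27.7 and 27.4 FPKM with si-NRDE2-2 (log2 fold change -0.18 ± 0.05, adjusted p = 0.00837). Omitting si-Control replicate 2 ended that call (-0.14, adjusted p = 0.0522). The other subunits of that complex, which corrects wrong attachments and later guides cleavage, did not pass the test. They were the kinase AURKB (-0.10 ± 0.06, adjusted p = 0.229), the scaffold INCENP (-0.08 ± 0.06, adjusted p = 0.292) and survivin, BIRC5, at 34.2, 36.1 and 36.8 FPKM with si-Control and 36.6, 38.1 and 36.0 FPKM with si-NRDE2-2 (0.05 ± 0.04, adjusted p = 0.398). AURKB passed without si-NRDE2-2 replicate 1 (-0.16, adjusted p = 0.0469) and INCENP without si-Control replicate 3 (-0.15, adjusted p = 0.0403).

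NDC80, which gives the kinetochore its grip on microtubules, was at 27.5, 27.9 and 27.9 FPKM with si-Control and 26.9, 28.5 and 27.0 FPKM with si-NRDE2-2 (log2 fold change -0.02 ± 0.04, adjusted p = 0.776). The kinetochore motor gene CENPE was at 15.5, 14.5 and 12.8 FPKM with si-Control and 11.2, 13.2 and 13.1 FPKM with si-NRDE2-2 (log2 fold change -0.19 ± 0.08, adjusted p = 0.0747), and the large corona protein gene CENPF at 31.9, 30.4 and 26.8 FPKM with si-Control and 24.3, 27.3 and 27.6 FPKM with si-NRDE2-2 (log2 fold change -0.17 ± 0.07, adjusted p = 0.0672). In both genes the groups overlapped through the low value of si-Control replicate 3, and both have transcripts of over 6000 bases. Without that library CENPE passed at -0.27 (adjusted p = 0.0178) and CENPF at -0.24 (adjusted p = 0.00975). With GC and length trends removed they passed at -0.23 (adjusted p = 9.5e-04) and -0.16 (adjusted p = 0.00337).

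Spindle factors fell in 4 of 6 cases (66.7%, against 23.0% of all genes tested) and rose in 0 (against 20.9%), with a median of -0.154. TPX2, which activates AURKA on the spindle and nucleates microtubules, was at 90.3, 95.2 and 92.3 FPKM in the si-Control libraries and 69.0, 74.6 and 70.4 FPKM in the si-NRDE2-2 libraries (log2 fold change -0.38 ± 0.05, adjusted p = 7.7e-05). Its groups were more than 15 FPKM apart. DLGAP5, a microtubule-bundling protein of the chromosomes' side of the spindle, was at 55.3, 54.8 and 54.8 FPKM with si-Control and 46.5, 51.0 and 50.1 FPKM with si-NRDE2-2 (log2 fold change -0.16 ± 0.05, adjusted p = 0.014). HMMR, the spindle-pole protein RHAMM and the least abundant member, was at 4.97, 4.75 and 4.69 FPKM with si-Control and 3.55, 4.45 and 3.99 FPKM with si-NRDE2-2 (log2 fold change -0.26 ± 0.08, adjusted p = 0.0194). The kinase NEK2, which splits the centrosomes, was at 28.6, 30.3 and 29.5 FPKM with si-Control and 24.8, 27.2 and 27.9 FPKM with si-NRDE2-2 (log2 fold change -0.15 ± 0.05, adjusted p = 0.0385). These last 2 calls did not hold in every alternative. HMMR lost its call when si-Control replicate 1 (adjusted p = 0.0607), si-Control replicate 2 (0.0514) or si-NRDE2-2 replicate 1 (-0.18, adjusted p = 0.054) was omitted, in a range of 0.00167 to 0.0607. For NEK2 the same held when si-Control replicate 2 or 3 was omitted (adjusted p = 0.143 and 0.063), and likewise si-NRDE2-2 replicate 1 or 2 (0.102 and 0.0673). Without both libraries that stood apart its change was -0.09 (adjusted p = 0.0617). The spindle-pole gene ASPM was at 15.9, 14.4 and 12.7 FPKM with si-Control and 13.9, 15.8 and 15.6 FPKM with si-NRDE2-2 (0.08 ± 0.08, adjusted p = 0.441). Its transcript is among the long ones that were low in si-Control replicate 3, and without that library the difference was -0.00 (adjusted p = 0.974). NUSAP1, which bundles microtubules near chromatin, went from 48.3 ± 1.72 to 49.9 ± 3.26 FPKM (0.04 ± 0.05, adjusted p = 0.528).

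**Figure D4:**
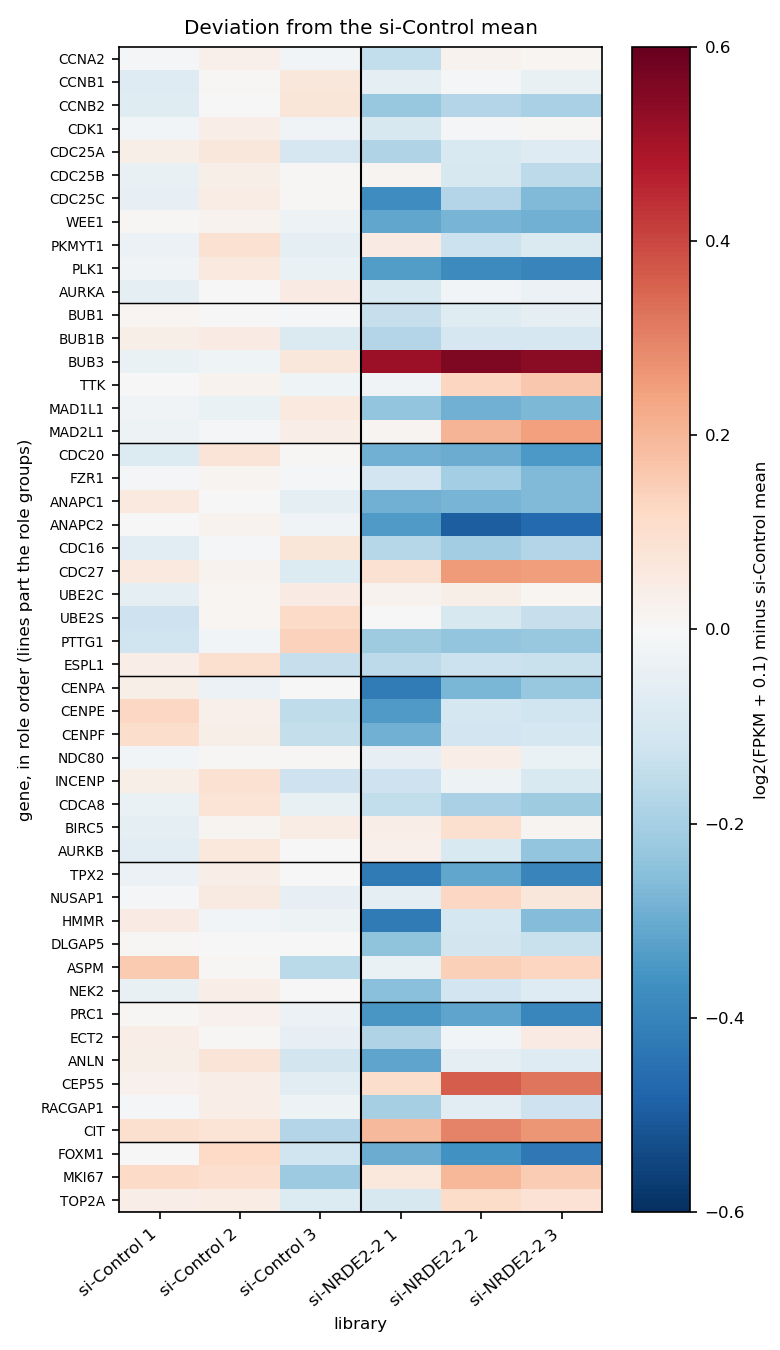
Each cell is log2(FPKM + 0.1) of a gene (rows, in role order, lines between role groups) in a library (columns) minus the gene's mean over the si-Control libraries, from blue (lower) to red (higher). BUB3 is the darkest red in all 3 si-NRDE2-2 columns, and most rows are palest within the control columns.

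Cytokinesis genes split, with 2 of 6 falling and 2 rising (median -0.089). These are 33.3% each, against 23.0% and 20.9% of all genes tested. PRC1, which bundles the antiparallel microtubules of the spindle midzone, was at 59.1, 59.8 and 57.4 FPKM in the si-Control libraries and 46.1, 47.2 and 44.7 FPKM in the si-NRDE2-2 libraries (log2 fold change -0.35 ± 0.04, adjusted p = 6.3e-05), without overlap. RACGAP1, a subunit of centralspindlin at the same midzone, was at 45.3, 46.6 and 44.4 FPKM with si-Control and 39.5, 43.5 and 41.7 FPKM with si-NRDE2-2 (log2 fold change -0.13 ± 0.05, adjusted p = 0.0438). This was the weakest of the falls, and it missed the threshold when si-Control replicate 1 or 2 was omitted (adjusted p = 0.0791 and 0.163), and likewise si-NRDE2-2 replicate 1 or 3 (0.117 and 0.0924). Both genes that rose act late. CEP55, which brings the abscission machinery to the midbody, was at 43.1, 43.4 and 40.3 FPKM with si-Control and 45.5, 54.4 and 52.7 FPKM with si-NRDE2-2 (log2 fold change 0.26 ± 0.06, adjusted p = 0.00669), with replicate 1 of si-NRDE2-2 nearest to the controls. CIT, citron kinase of the midbody, was at 9.72, 9.64 and 8.03 FPKM with si-Control and 10.4, 11.2 and 11.0 FPKM with si-NRDE2-2 (log2 fold change 0.25 ± 0.07, adjusted p = 0.0155). Without si-Control replicate 3, the low one for long transcripts, the change of CIT was 0.16 (adjusted p = 0.0283), and without si-NRDE2-2 replicate 2 it lost the call (0.23, adjusted p = 0.0576, in a range of 9.4e-04 to 0.0576).

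ECT2, the exchange factor that activates RHOA at the cell equator, was at 49.4, 48.2 and 46.3 FPKM with si-Control and 42.3, 47.4 and 49.6 FPKM with si-NRDE2-2 (log2 fold change -0.05 ± 0.06, adjusted p = 0.517), its si-NRDE2-2 libraries on both sides of the controls. It passed with GC and length trends taken out (-0.09, adjusted p = 0.0474). ANLN, anillin, the scaffold of the contractile ring, was at 83.9, 86.2 and 75.6 FPKM with si-Control and 65.7, 78.7 and 77.4 FPKM with si-NRDE2-2 (log2 fold change -0.15 ± 0.07, adjusted p = 0.115). It passed without si-Control replicate 3 (-0.21, adjusted p = 0.0398).

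FOXM1, the transcription factor of many of the other members, fell, at 31.8, 34.5 and 29.2 FPKM in the si-Control libraries and 25.8, 24.6 and 23.5 FPKM in the si-NRDE2-2 libraries (log2 fold change -0.36 ± 0.06, adjusted p = 7.4e-04). Each si-NRDE2-2 library was below each control library. The proliferation marker MKI67 did not pass the test, at 30.3, 30.02 and 24.0 FPKM with si-Control and 29.2, 32.1 and 31.1 FPKM with si-NRDE2-2 (log2 fold change 0.14 ± 0.08, adjusted p = 0.184). Its one low library was si-Control replicate 3, where long transcripts were low. Without that library the difference was 0.03 (adjusted p = 0.64). With GC and length trends removed and all libraries kept it was 0.19 (adjusted p = 0.0105), the single alternative in which MKI67 passed. TOP2A, topoisomerase II alpha, which untangles sister chromatids, was at 88.1, 88.6 and 81.0 FPKM with si-Control and 80.1, 92.7 and 91.2 FPKM with si-NRDE2-2 (log2 fold change 0.03 ± 0.06, adjusted p = 0.687).

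Each of the 4 genes that rose held at least 1 of the runs of letters below in its 3′ UTR, which is not independent of these data. No single run was in all 4. The letters GACGTA were picked, from the fold changes in this same table, as frequent in the 3′ UTRs of genes that rose. The letters GACAGTA were picked with them. So were the letters GACTGTA. In the 3′ UTR of 1 GENCODE transcript per gene (release 29, GRCh38), all 4 genes that rose held at least 1 of these, as did 1 of the 20 that fell (ANAPC1) and 0 of the 26 that did not pass the test. Of 11089 tested genes with such a UTR 19.8% held at least 1, a share not matched for UTR length. As the letters were picked from genes that rose in these data, this contrast was in part fixed in advance, and no conclusion is drawn from it. In a wider list of other mitotic genes, described below, at least 1 was held by 7 of the 19 that rose. There it was held by 4 of the 40 that fell and 10 of the 62 that did not pass the test. These genes belong to the same data from which the letters were picked, so their counts are not an independent check. UTR length was not matched there either, and no conclusion is drawn. The matches are shown with the letters in capitals, on the transcript strand.
BUB3, chr10:123164458-123164487, plus strand: tatcattttgtGACTGTAaacaattattta
BUB3, chr10:123165231-123165259, plus strand: tacagtagtctGACGTAtttccccttctg
BUB3, chr10:123166703-123166732, plus strand: aaggggccgcgGACTGTAaggtgctctcag
CDC27, chr17:47120771-47120800, minus strand: cattggaccctGACTGTAtacagaatgaaa
CEP55, chr10:93528891-93528920, plus strand: ctcatttgattGACAGTAttttagttattt
CIT, chr12:119687744-119687772, minus strand: atttgaatagcGACGTAtttcctgttgta
CIT, chr12:119686161-119686190, minus strand: ctagctcaaaaGACTGTAcatatttacaag
ANAPC1, chr2:111768671-111768700, minus strand: aatccctgtgtGACTGTAttaggcaatagg

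BUB3, with the largest rise, has a long 3′ UTR of 6632 bases that held 1 GACGTA and 2 GACTGTA, and CIT held 1 GACGTA and 1 GACTGTA. CEP55 held 1 GACAGTA, CDC27 1 GACTGTA and ANAPC1, which fell, 1 GACTGTA. MAD2L1, higher with si-NRDE2-2 without passing the test, held none in 4510 bases. Whether si-NRDE2-2 acts on these transcripts through such letters was not tested, and the siRNA sequence was not used here.

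A wider list of 122 other genes of mitosis, of which 121 were tested (CCNB3 was too low), had more falls than rises. Of the 121 genes 40 fell (33.1%, against 23.0% of all genes) and 19 rose (15.7%, against 20.9%), with a median of -0.085. This list, too, was chosen with earlier results of these data known. The 4 with the smallest adjusted p among those that fell were SPAG5, a spindle and kinetochore protein also called astrin, at 33.8, 33.7 and 33.0 FPKM in the si-Control libraries and 21.1, 21.1 and 21.4 FPKM in the si-NRDE2-2 libraries (log2 fold change -0.66 ± 0.04, adjusted p = 4.3e-07), the condensin II subunit NCAPG2 (-0.83 ± 0.05), TACC3, which links microtubules in the spindle (-0.48 ± 0.05), and KNTC1, the ROD subunit of the kinetochore complex that recruits dynein (-0.55 ± 0.07). Adjusted p-values for the last 3 were 4.8e-07, 1.3e-05 and 1.2e-04. Those that rose most clearly were the microtubule-destabilizing protein gene STMN1, at 120.4, 120.2 and 132 FPKM in the si-Control libraries and 307, 324 and 310.1 FPKM in the si-NRDE2-2 libraries (log2 fold change 1.34 ± 0.05, adjusted p = 2.3e-08), the attachment factor gene BOD1 (1.20 ± 0.05), the CDK inhibitor gene CDKN1A (0.70 ± 0.04) and the cohesin subunit gene STAG2 (0.78 ± 0.06). Their adjusted p-values were 2.3e-08, 6.1e-07 and 1.9e-06.

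Within the wider list the falls were most frequent among spindle and cytokinesis genes, with 13 of 24 lower and 1 higher (median -0.155). Falls were 54.2% and rises 4.17% of that set, against 23.0% and 20.9% of all genes tested. Kinetochore and centromere genes had 8 of 32 lower and 5 higher (median -0.078), and condensin and cohesin genes 6 of 16 lower and 2 higher (median -0.074). Of the 12 other APC/C genes 1 fell (8.33%) and 4 rose (33.3%). The one that fell was ANAPC5 (-0.13 ± 0.04, adjusted p = 0.0242), and those that rose, named after their values were seen, were CDC26 (0.64 ± 0.05, adjusted p = 2.3e-06), CDC23 (0.20 ± 0.04), ANAPC15 (0.18 ± 0.05) and the ubiquitin-conjugating enzyme gene UBE2D1 (0.23 ± 0.07). CDC26, a small subunit that stabilizes CDC16, was at 13.9, 13.4 and 14.5 FPKM with si-Control and 21.8, 21.1 and 22.5 FPKM with si-NRDE2-2, so it rose while CDC16 fell.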

How the data were processed

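The deposited table holds FPKM values, which the authors computed per gene and library (fragments scaled by transcript length and depth). The tools STAR (2.5.1b) and DESeq2 (1.10.1) and the build hg19 are named in the submitters' processing notes, with no role given. The program behind the FPKM values, its annotation and its strand setting are not given in the sources used here, so for the 14 members whose exons overlap a gene on the other strand in GENCODE the 2 may not be separated. Each column was tied to its sample by the label text, and 4 other columns were not used. A gene entered the test if 3 or more libraries held it at 1 FPKM or above, and 165 small RNA rows were left out. log2(FPKM + 0.1) was fitted over all 11783 genes with limma 3.58.1 (R 4.3.3), trended and robust prior variance, group as the only term, Benjamini-Hochberg adjustment, two-sided. Fold changes are on that log2 scale, so those of low genes are understated. Values are mean ± SD (n = 3), fold changes ± SE. The spread behind each p-value is that between these libraries and may be technical.

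Transcript length, GC content and 3′ UTRs came from 1 GENCODE transcript per gene. Depth rests on 147 low genes (quartiles 40500000 and 56000000 for si-Control replicate 1) and is approximate. The fit was tested on simulated data with independent noise for each gene and library. That simulation held no shift tied to transcript length, so it cannot show how such a shift affects the calls. The members and gene lists were chosen with earlier results of these data known. All 50 members are named, with values by library for those past the threshold. Of the wider list the 4 with the smallest adjusted p in each direction are named. Alternatives covered the pseudocount, the filter, scaling, the variance trend, the replicate number as a block, GC and length trends and each library left out. Leaving out 2 libraries together was chosen after seeing the data.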

Additional observations from a re-analysis of the deposited data

How the results depend on the processing

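Of the 20 members that fell 15 kept their call under every alternative run, as did 2 of the 4 that rose (BUB3 and CEP55), and no called change turned direction. When single libraries were left out, the number that rose ran from 2 (without si-NRDE2-2 replicate 2) to 6 and the median log2 fold change of the 50 genes from -0.145 to -0.092 (without si-Control replicate 2). The other counts of members that fell or rose stayed within 1.5 times the reported ones, the largest by a planned setting other than these being 26 that fell and 6 that rose with GC and length trends removed. HMMR and CIT also lost their call with no filter on low values (adjusted p = 0.0533 and 0.0509), CIT with equal FPKM totals (adjusted p = 0.0564), and NEK2 and RACGAP1 with no filter, equal totals or no variance trend (adjusted p from 0.0569 to 0.082 for NEK2 and from 0.0735 to 0.0788 for RACGAP1). With the replicate block 19 fell and 5 rose, RACGAP1 losing (adjusted p = 0.0633) and MAD2L1 gaining its call (adjusted p = 0.042). Same-numbered libraries did not deviate together (correlations of -0.123, 0.105 and -0.121 over genes), and only replicate 2 correlated best with its own number, so the numbers were not taken as pairs. Depth limits HMMR most among the members.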

Other observations

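Among 17 regulators of mitotic gene transcription in the wider list 5 fell and 6 rose, with a median log2 fold change of 0.041. Falls were 29.4% and rises 35.3%, against 23.0% and 20.9% of all genes tested. MYBL2, the B-MYB factor that joins the MuvB complex at CHR promoters, fell, with means of 26.0 ± 0.895 FPKM in the si-Control and 21.4 ± 0.376 FPKM in the si-NRDE2-2 libraries (log2 fold change -0.28 ± 0.04, adjusted p = 4.1e-04), as did the repressor gene E2F8 (-0.39 ± 0.08, adjusted p = 0.00349) and the NF-Y subunit gene NFYC (-0.17 ± 0.04, adjusted p = 0.00904). Those that rose included CDKN1A, E2F1 (0.19 ± 0.04, adjusted p = 0.00563), its partner gene TFDP1 (0.19 ± 0.04, adjusted p = 0.00353), the pocket protein gene RBL2 (0.19 ± 0.05, adjusted p = 0.00977), and NFYA (0.15 ± 0.04, adjusted p = 0.0195). The MuvB subunit genes were split: LIN52 (-0.29 ± 0.07, adjusted p = 0.00627) and LIN37 (-0.18 ± 0.05, adjusted p = 0.0182) fell, RBBP4 (0.16 ± 0.05, adjusted p = 0.0277) rose, and LIN9 (-0.15 ± 0.09, adjusted p = 0.182) and LIN54 (0.04 ± 0.08, adjusted p = 0.724) did not pass the test. These names, other than CDKN1A, were chosen after their values were seen. The third NF-Y subunit gene, NFYB, did not pass the test, at 0.09 ± 0.06 (adjusted p = 0.222). Whether these changes bear on the members' levels was not tested.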
